A study of Mus musculus with 3 samples.

Results

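The miR-322 and miR-503 cluster is a group of miRNA hairpins on the mouse X chromosome, and 7 of its mature miRNAs were examined here in newborn ovaries exposed to DEHP. The members were listed by name. They were miR-322-5p, miR-322-3p, miR-503-5p, miR-351-5p, miR-542-3p, miR-450a-5p and miR-450b-5p, and all 7 were present among the 627 mature miRNAs of the deposited table. The ovaries came from CD1 mice and were taken from newborn females. They were cultured in vitro for 3 days with 0, 10 or 100 μM DEHP, and the series names postnatal day 3 as their stage. DEHP, di(2-ethylhexyl) phthalate, is a plasticizer, and the cultures at 0 μM received the vehicle DMSO. Ovaries of many pups were pooled, and 1 small RNA library was sequenced per concentration. The libraries therefore have no replicates, no p-value goes with any difference, and the variation between cultures was not measured. All 95% intervals therefore cover counting error only. The reads carried no stated molecular identifiers and copies made by PCR are counted again, so the intervals can be too narrow even for that error.

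Clustered miRNAs are usually cut from a shared primary transcript. Drosha first releases the hairpins, Dicer then leaves a duplex of a 5p and a 3p strand, and Argonaute keeps 1 strand of it for target recognition through the seed near its 5′ end. Members of such a cluster can therefore differ in level through processing, strand choice and turnover even where they share transcription. Mouse miR-322 is the counterpart of human miR-424. miR-322-5p and miR-503-5p belong to the extended miR-15/16 family, which is known for holding back the cell cycle through cyclins and Cdc25a, and miR-503 has been described as an abundant ovarian miRNA.

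The mature sequences, taken from RefSeq on GRCm38.p6, are shown because their seeds decide which other miRNAs of the ovary can act on the same targets. They are written 5′ to 3′, with the seed, bases 2 to 8, in capitals.
mmu-miR-322-5p: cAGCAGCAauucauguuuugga
mmu-miR-503-5p: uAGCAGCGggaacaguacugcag
mmu-miR-351-5p: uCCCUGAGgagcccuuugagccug
mmu-miR-322-3p: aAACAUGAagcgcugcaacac
mmu-miR-542-3p: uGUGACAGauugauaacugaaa
mmu-miR-450a-5p: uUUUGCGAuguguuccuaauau
mmu-miR-450b-5p: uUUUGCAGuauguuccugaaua
miR-322-5p and miR-503-5p had the same bases from 2 to 7 and differed at base 8. A RefSeq sequence was found for 529 of the 627 miRNAs. The search left out the entries of an autosome, so miRNAs found only there were not compared by seed. Among these, the full seed of miR-322-5p was shared by 5 others, miR-15a-5p, miR-15b-5p, miR-16-5p, miR-195a-5p and miR-497a-5p. The seed of miR-351-5p was shared by 2 others, miR-125a-5p and miR-125b-5p, and the seeds of the remaining members by 0 others. Compared without gaps from the 5′ end, miR-450a-5p and miR-450b-5p were identical at 15 of 22 positions and 5 of 7 seed positions.

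The 7 hairpins lie on the minus strand within 6353 bases, from 53047997 to 53054349 on chromosome X of GRCm38, the build that mm10 names. From upstream to downstream they are Mir322 (53054255 to 53054349), Mir503 (53053984 to 53054054), Mir351 (53053255 to 53053353), Mir542 (53049403 to 53049487), Mir450-2 (53048299 to 53048367), Mir450-1 (53048154 to 53048244) and Mir450b (53047997 to 53048078). GENCODE M21 gives each of them as a miRNA gene at the same position. The first 3 hairpins fall inside the long non-coding gene C430049B03Rik of RefSeq (53053112 to 53057190), whereas the GENCODE model of that gene lies wholly upstream of them. A stretch of 3767 bases separates Mir351 from Mir542. miR-450a-5p can come from both Mir450-1 and Mir450-2, and its 2 rows in the table held almost the same counts, 7603 and 7603 at 0 μM, 7167 and 7168 at 10 μM, and 2125 and 2129 at 100 μM. The rows cannot be separated by hairpin, and the row with the higher total was used.

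The library of 100 μM DEHP stood apart from the other 2. Its 10 most abundant miRNAs held 70.5% of its counts, against 45.4% at 0 μM and 45.6% at 10 μM. The members were not among them, and the totals were similar, 5253367, 5064602 and 5952274 counts at 0, 10 and 100 μM. Normalized counts here are counts over DESeq2 size factors (1.38, 1.35 and 0.546), and a log2 ratio is that of normalized counts with 0.5 added. Over the 587 miRNAs whose mean normalized count reached 10, the standard deviation of the log2 ratio to 0 μM was 0.56 at 10 μM and 1.60 at 100 μM. Scaling to total counts lowered every log2 ratio between 100 and 0 μM by about the same amount, and shifted the median of all miRNAs by -1.52. Leaving the most abundant miRNAs out of the library sizes shifted it by -0.58. Shares and ratios within a library do not depend on this choice and are given first. miR-202-5p, a miRNA enriched in gonads, had 41367, 53172 and 9799 raw counts at 0, 10 and 100 μM. The other strand of its hairpin, miR-202-3p, had 1614, 1261 and 1098 raw counts. The effect of DEHP and that of library preparation cannot be told apart with these libraries, nor can fewer cells of a type and less of a miRNA per cell.

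Within the cluster, the library of 100 μM DEHP had a different make-up from the other 2. The 7 members together had 102804 counts at 0 μM, 104028 at 10 μM and 74226 at 100 μM, which was 1.96%, 2.05% and 1.25% of the library. The log2 ratio of their summed level to 0 μM was 0.05 at 10 μM, and at 100 μM it was 0.87 with the size factors and -0.65 with total counts. miR-322-3p was the most abundant member in each library and held 39.7%, 39.4% and 50.6% of the cluster counts at 0, 10 and 100 μM. The exact Clopper-Pearson 95% intervals of these shares were 39.4% to 40.0%, 39.1% to 39.7% and 50.2% to 50.9%. miR-542-3p accounted for 14.4%, 11.4% and 21.1% at 0, 10 and 100 μM. The share of miR-450b-5p, the least abundant member at 0 and 10 μM, was 1.57%, 0.994% and 2.57%. These 3 members had their largest share at 100 μM, with intervals that did not overlap those of the other libraries. By contrast, miR-503-5p made up 8.38% of the cluster at 0 μM, 5.20% at 10 μM and 1.30% at 100 μM. miR-322-5p went from 6.09% and 6.21% to 2.75%, and miR-450a-5p from 7.40% and 6.89% to 2.87%. miR-351-5p was largest at 10 μM, with 29.9%, against 22.5% at 0 μM and 18.8% at 100 μM.

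**Figure D1:**
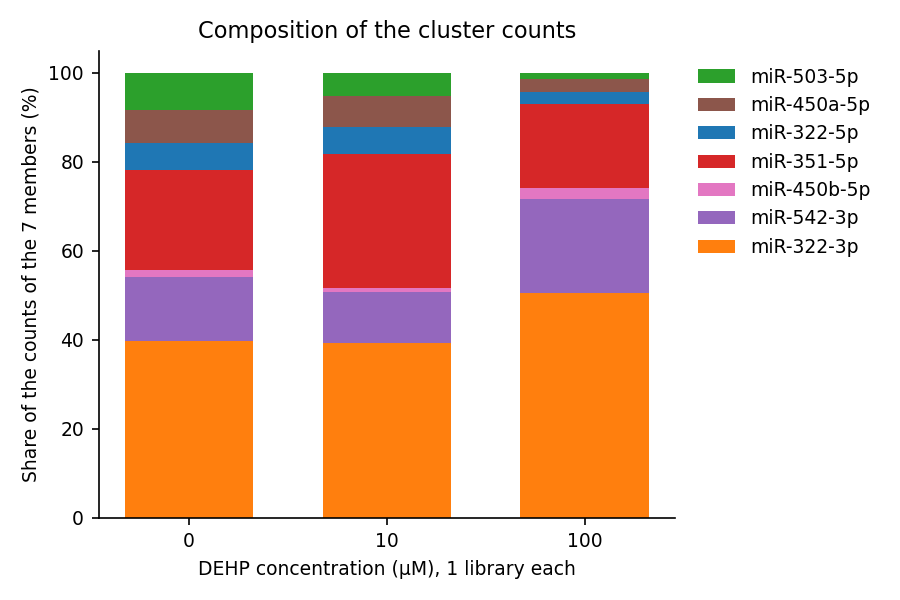
Share (%) of each of the 7 members in their summed counts, as stacked bars, for the libraries of 0, 10 and 100 μM DEHP (1 library each). The block of miR-322-3p grows from 39.7% to 50.6% between 0 and 100 μM and that of miR-503-5p shrinks from 8.38% to 1.30%.

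The arms of the Mir322 hairpin kept their balance at 10 μM DEHP and not at 100 μM. The 3p strand was the abundant one, with 40803 counts of miR-322-3p against 6260 of miR-322-5p at 0 μM, 40984 against 6461 at 10 μM, and 37543 against 2042 at 100 μM. There were 6.52 counts of 3p per count of 5p without DEHP, with a 95% interval of 6.35 to 6.69, and 6.34 at 10 μM (6.18 to 6.51). At 100 μM the arm ratio was 18.4 (17.6 to 19.2). On the log2 scale the arm ratio changed by -0.04 from 0 to 10 μM, with an interval of -0.09 to 0.01 (Woolf), and by 1.50 from 0 to 100 μM (1.42 to 1.57). Both strands come from the same hairpin, and their ratio needs no scaling. After division by the size factors, miR-322-3p had 29608 normalized counts in the control library, 30405 at 10 μM and 68781 at 100 μM. Its log2 ratio between 100 and 0 μM was 1.22 with the size factors, and the sign turned to -0.30 with total counts. miR-322-5p, the strand with the miR-15/16 seed, had 4542, 4793 and 3741 normalized counts and a log2 ratio of -0.28 between 100 and 0 μM. This value was -0.86 with library sizes that leave out the most abundant miRNAs and -1.80 with total counts.

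miR-503-5p was the member with the lowest log2 ratio to 0 μM in both exposed libraries, although at 10 μM its interval overlapped that of miR-450b-5p. It had 8611 counts at 0 μM, 5412 at 10 μM and 968 at 100 μM, which gave normalized counts of 6248, 4015 and 1773. The level was thus highest without DEHP and lowest at 100 μM, with no overlap of the exact Poisson intervals. On the log2 scale the 10 μM library was at -0.64 from the control, with an interval of -0.69 to -0.59. The 100 μM library was at -1.82 (-1.91 to -1.72), which is a 3.52-fold lower level at 100 μM. With total counts these were -0.62 and -3.33. Of the 587 miRNAs, 64 had a lower log2 ratio than miR-503-5p at 100 μM. The other strand, miR-503-3p, had 1203, 1552 and 444 counts at 0, 10 and 100 μM and log2 ratios of 0.40 at 10 μM and -0.10 at 100 μM. The 5p strand thus outnumbered the 3p strand 7.16 to 1 without DEHP, 3.49 to 1 at 10 μM and 2.18 to 1 at 100 μM, with intervals of 6.74 to 7.61, 3.30 to 3.69 and 1.95 to 2.44. This was the hairpin of the cluster with the lowest arm ratio at 100 μM.

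miR-351-5p carries the seed of the miR-125 family. Its counts were 23081 at 0 μM, 31149 at 10 μM and 13986 at 100 μM, and its normalized counts 16748, 23108 and 25623. Its log2 ratio to 0 μM was 0.46 in the 10 μM library, with an interval of 0.44 to 0.49, and 0.61 in the 100 μM library, with an interval of 0.58 to 0.64. The value at 10 μM was the highest of the 7 members and kept its sign with each scaling, whereas that at 100 μM became -0.90 with total counts. Its minor strand miR-351-3p had 144, 143 and 72 counts, and the intervals of its log2 ratios included 0 in the 3 comparisons.

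miR-542-3p and miR-450b-5p, which lie in the downstream part of the cluster, were lower at 10 μM and had the highest log2 ratios of the cluster at 100 μM. miR-542-3p, which has been described as a regulator of survivin, had 14832 counts at 0 μM, 11820 at 10 μM and 15651 at 100 μM. Its normalized counts were 10762, 8769 and 28674, and its log2 ratio to 0 μM went from -0.30 in the 10 μM library (-0.33 to -0.26) up to 1.41 in the 100 μM library (1.38 to 1.45). With total counts the value at 100 μM was -0.10. miR-450b-5p had 1614, 1034 and 1907 counts at 0, 10 and 100 μM and normalized counts of 1171, 767 and 3494. miR-450b-5p had a log2 ratio to 0 μM of -0.61 in the 10 μM library, with an interval of -0.72 to -0.50. In the 100 μM library it was 1.58 (1.48 to 1.67), or 0.06 with total counts.

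miR-450a-5p, a close relative of miR-450b-5p in sequence and its neighbour on the chromosome, had the opposite sign at 100 μM. It had 7603 counts at 0 μM, 7168 at 10 μM and 2129 at 100 μM, and normalized counts of 5517, 5318 and 3900. miR-450a-5p had a log2 ratio to 0 μM of -0.05 in the 10 μM library, with an interval of -0.10 to -0.01, and of -0.50 in the 100 μM library (-0.57 to -0.43). The latter became -1.08 with library sizes that leave out the most abundant miRNAs and -2.02 with total counts. The value at 10 μM turned to 0.0074 with upper-quartile scaling. The log2 ratio of miR-450a-5p between 100 and 0 μM was 2.08 below that of miR-450b-5p (Woolf 95% interval of the difference -2.20 to -1.96), whatever the scaling. As printed above, both are 22 bases long with 7 G or C, start with the same 6 bases, and differ at 7 positions, 3 of them in the last 3 bases. The counts of miR-450a-5p and miR-450b-5p were 4.71 to 1 at 0 μM and 6.93 to 1 at 10 μM, and 1.12 to 1 at 100 μM.

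**Figure D2:**
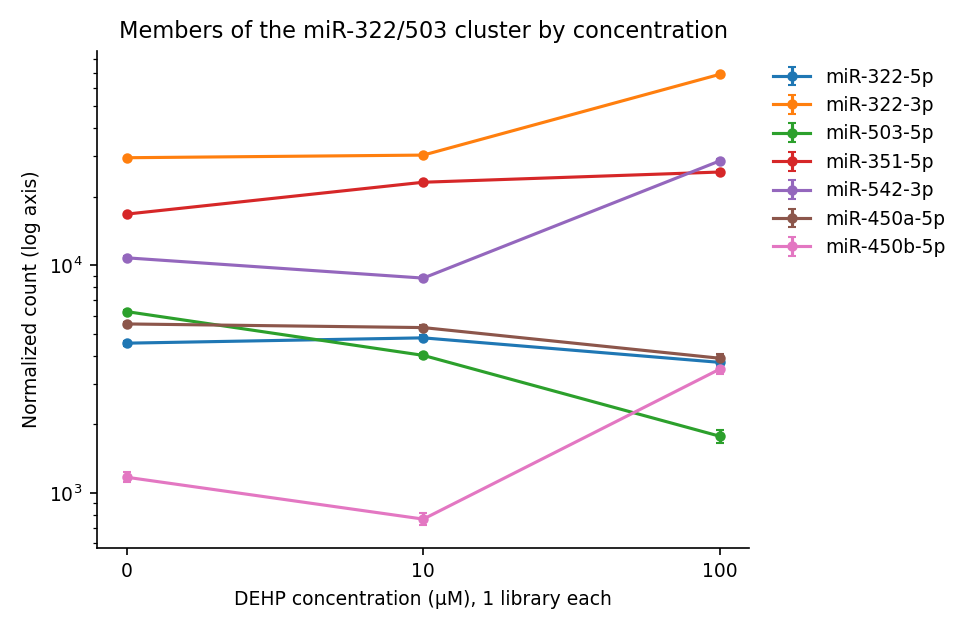
Normalized counts (log axis) of the 7 members in the libraries of 0, 10 and 100 μM DEHP. Bars are exact Poisson 95% intervals of 1 library and are mostly smaller than the points. miR-503-5p goes from 6248 to 1773 and miR-450b-5p from 1171 to 3494 between 0 and 100 μM, and with total counts the lines of miR-322-3p, miR-351-5p and miR-542-3p would end below their level at 0 μM.

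Counts of members past a given log2 ratio are set beside the share of all miRNAs, and with 7 members they do not set the cluster apart. A log2 ratio beyond 2, the fold that the study's methods name, was found for 0 of 7 members between 10 and 0 μM, where 0.681% of the 587 miRNAs were beyond it, and for 0 of 7 between 100 and 0 μM, where 19.8% were. The study's methods also set a limit on the false discovery rate. That limit was not applied here, so these shares are not comparable with the study's own calls. Between 100 and 10 μM, 1 member was above 2, miR-450b-5p at 2.19 (2.08 to 2.30), against 12.3% of all miRNAs, and 0 members were below -2, against 8.69%. Beyond 1, there were 0 of 7 between 10 and 0 μM (6.64% of all miRNAs). Between 100 and 0 μM, 3 were higher (26.7% of all), namely miR-322-3p, miR-542-3p and miR-450b-5p, and 1 was lower (25.7% of all), namely miR-503-5p. With total counts 0 members were above 1 and 3 below -1 in this comparison, and with library sizes that leave out the most abundant miRNAs 0 and 2. The same members passed 1 between 100 and 10 μM with the size factors, where 29.5% of all miRNAs were higher and 24.7% lower, and with total counts 0 were above 1 and 4 below -1. The comparisons with 100 μM share that library. The median log2 ratio of the members was -0.05 between 10 and 0 μM, 0.61 between 100 and 0 μM and 0.15 between 100 and 10 μM, beside 0.02, -0.01 and -0.03 for all miRNAs. With total counts the medians of the members in the comparisons with 100 μM were -0.90 and -1.39, as those of all miRNAs were lowered too.

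**Figure D3:**
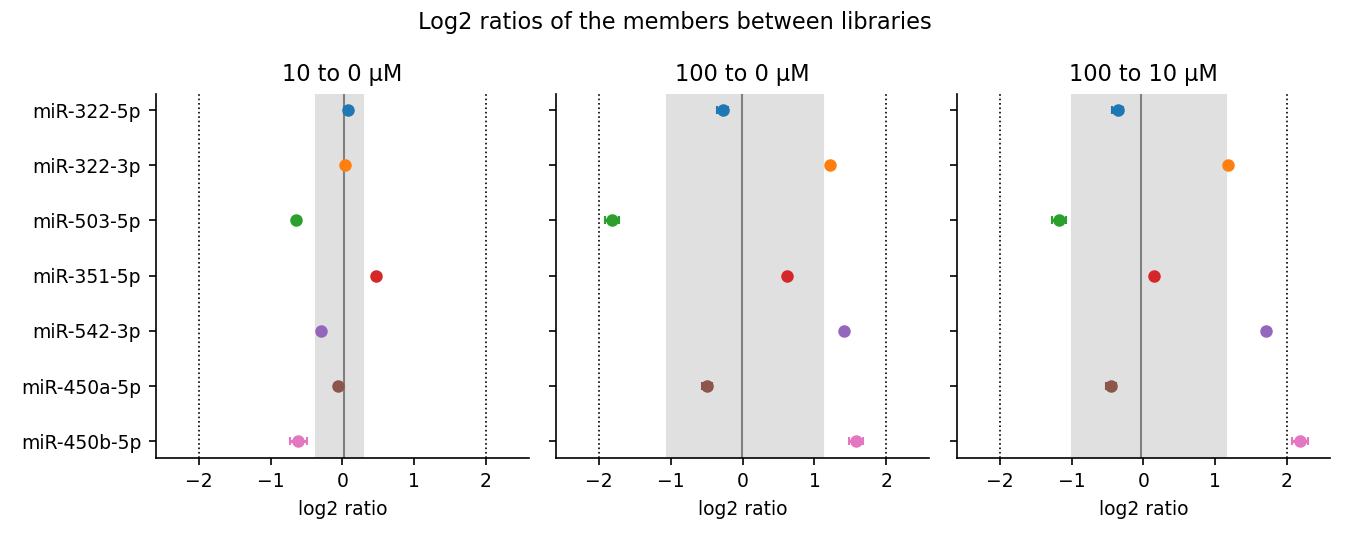
Log2 ratios of the 7 members for 10 to 0, 100 to 0 and 100 to 10 μM DEHP (points, with 95% counting intervals), beside the median (grey line) and the middle 50% (grey band) of 587 miRNAs and the threshold of 2 (dotted). Between 100 and 0 μM the members range from -1.82 for miR-503-5p to 1.58 for miR-450b-5p, and with total counts the values of miR-322-3p, miR-351-5p and miR-542-3p fall below 0.

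Members of the cluster differed among themselves more at 100 μM than at 10 μM, as all miRNAs did. Their log2 ratios to 0 μM spanned 1.10 at 10 μM and 3.39 at 100 μM. The standard deviation over the members was 0.40 at 10 μM and 1.24 at 100 μM, beside 0.56 and 1.60 over all 587 miRNAs. Of the 21 pairs of members, 13 differed by more than 1 in their log2 ratio between 100 and 0 μM and 5 by more than 2, whereas at 10 μM 2 pairs differed by more than 1 and 0 by more than 2. The differences between members do not depend on the scaling. The share of all pairs of miRNAs past these values was not computed, and by standard deviation the members were less spread than all miRNAs at both concentrations. However, each member had at least 968 counts in each library. The 587 miRNAs go down to a mean normalized count of 10, where counting error is larger and adds to the spread. Along the chromosome, the lowest member miR-503-5p (-1.82) came from the hairpin next to Mir322, whose 3p strand was at 1.22, and miR-450a-5p (-0.50) came from hairpins between those of miR-542-3p (1.41) and miR-450b-5p (1.58). The share of G or C was 31.8% in miR-450b-5p, miR-542-3p and miR-450a-5p, 40.9% in miR-322-5p and 47.6% in miR-322-3p. It was 56.5% in miR-503-5p and 62.5% in miR-351-5p. A relation of the log2 ratios to position or base composition was not tested.

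**Figure D4:**
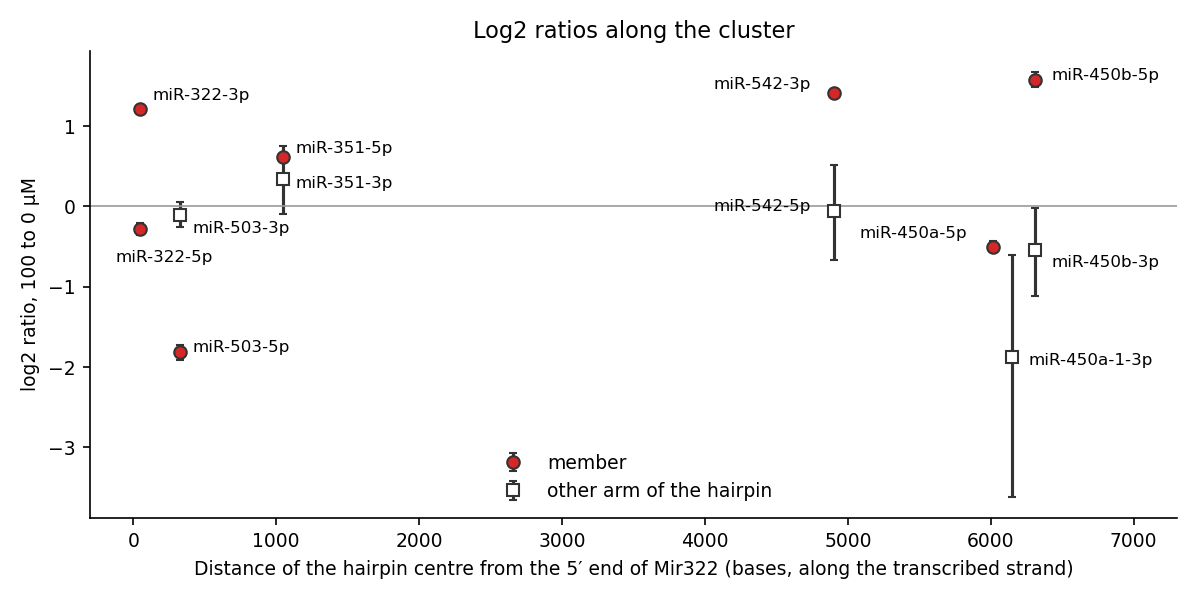
Log2 ratio between 100 and 0 μM DEHP (size factors of DESeq2) of the members (filled circles) and of the other strands of their hairpins (open squares), against the distance in bases of the hairpin centre from the 5′ end of Mir322, with miR-450a-5p drawn at Mir450-2. Bars are 95% counting intervals, and the members range from -1.82 to 1.58, with neighbouring hairpins on both sides of 0. With total counts the median of all miRNAs shifts by -1.52, and each point with it.

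The minor strands of the same hairpins gave 5 more miRNAs, with lower counts. miR-542-5p had 92, 70 and 35 counts at 0, 10 and 100 μM, miR-450b-3p 137, 152 and 37, and miR-450a-1-3p 48, 56 and 5. Between 100 and 0 μM their log2 ratios were -0.06 (-0.66 to 0.52), -0.55 (-1.12 to -0.02) and -1.87 (-3.61 to -0.61). For 3 of the hairpins the balance thus moved toward the abundant strand at 100 μM, beyond counting error. Arm ratios of hairpins outside the cluster were not computed, so these moves are not set apart from those of other hairpins. Over all 587 miRNAs the log2 ratio between 100 and 0 μM had a standard deviation of 1.60. There were 11.8 counts of miR-450b-5p per count of miR-450b-3p without DEHP (9.89 to 14.1). At 10 μM there were 6.80 (5.73 to 8.12), and at 100 μM 51.5 (37.3 to 73.4). That of miR-542-3p to miR-542-5p was 161, 169 and 447, with a log2 change of 1.47 between 0 and 100 μM (0.91 to 2.03), and the third was Mir322. For Mir503 the balance moved the other way. The arm ratio of Mir351 changed by 0.28 between 0 and 100 μM on the log2 scale, with an interval of -0.13 to 0.69. Between 0 and 10 μM it changed by 0.44, with an interval of 0.11 to 0.78. The ratio of miR-450a-5p to miR-450a-1-3p was not read as an arm ratio, since the 5p strand also comes from Mir450-2.

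Among the miRNAs with the seed bases 2 to 7 of miR-322-5p, the share of miR-322-5p was highest at 100 μM and that of miR-503-5p lowest. The pool of 7 (miR-322-5p, miR-503-5p and the 5 seed relatives named above) had 25670 counts at 0 μM, 23538 at 10 μM and 6501 at 100 μM. miR-322-5p made up 24.4%, 27.4% and 31.4% of the pool, with intervals of 23.9% to 24.9%, 26.9% to 28.0% and 30.3% to 32.6%. miR-503-5p made up 33.5%, 23.0% and 14.9%. miR-16-5p, the most abundant relative from other loci, went from 34.1% to 39.5% and 41.5%. The shares of miR-322-5p and miR-16-5p were thus larger in both exposed libraries than at 0 μM, and that of miR-503-5p was smaller. The log2 ratios of the 5 relatives between 100 and 0 μM went from -1.07 for miR-15a-5p to 0.23 for miR-15b-5p, with a median of -0.36.

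In the pool with the seed of miR-351-5p, the share of the cluster was lowest at 10 μM and highest at 100 μM. miR-351-5p held 22.5% of 102557 counts at 0 μM, 17.9% of 174291 at 10 μM and 37.4% of 37438 at 100 μM. miR-125b-5p held 63.0%, 62.2% and 47.9% and was the most abundant of the 3 in each library. The log2 ratio at 10 μM was 1.26 for miR-125a-5p and 0.78 for miR-125b-5p, beside 0.46 for miR-351-5p.

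Another X-linked group of clustered miRNAs, miR-465 and its neighbours, is given for its values alone. Of its 28 strands in the table, 27 passed the minimum, and their log2 ratios between 100 and 0 μM had a median of -0.12. Among these 27, 6 were above 2 and 3 below -2, beside 61 and 55 of all 587 miRNAs. The lowest of the group, miR-465d-3p, had 0 counts at 100 μM, which allows up to 3, so its ratio depends on the added 0.5. miR-465a-3p, miR-465b-3p and miR-465c-3p had identical counts and share their reads. These reads are thus counted repeatedly among the 27, and the median of -0.12 is their value. The miR-465 group was not compared with the miR-322 and miR-503 cluster, because the groups differ in size and abundance.

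The miRNAs outside the cluster whose pattern was closest to that of miR-322-5p were miR-669a-5p, miR-669p-5p, miR-451a, miR-30c-5p and miR-148b-5p. Likeness was the Euclidean distance between the log2 ratios at 10 and 100 μM, over 3 libraries among 367 miRNAs whose mean normalized count reached 100. The distances went from 0.031 to 0.065. miR-669a-5p and miR-669p-5p had the same counts (262, 265 and 86) and could not be told apart. miR-30c-5p was the most abundant of the 5, with 47517, 50584 and 16013 counts at 0, 10 and 100 μM. miR-451a had 165, 177 and 54 counts, and miR-148b-5p had 182, 186 and 62. The log2 ratio of miR-322-5p between 100 and 0 μM had an interval of -0.35 to -0.21, which is wider than these distances. The counts therefore do not settle which miRNAs were closest. The order is a description and has no test.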

How the data were processed

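Pooled ovaries of newborn CD1 mice were cultured with 0, 10 or 100 μM DEHP, and 1 library per concentration was sequenced. The authors trimmed the reads, aligned them to the mouse genome (mm10, per the labels) with bowtie2 and quantified mature miRNAs with miRDeep2. The values the authors deposited are raw counts in whole numbers, with a row for each pair of mature miRNA and precursor. The submitters' processing notes name DESeq2. Tool versions and the miRBase release are not given in the sources used here. The table holds 961 rows for 627 mature IDs. Its lowest count is 10 at 0 μM, 2 at 10 μM and 0 at 100 μM. miRNAs with fewer than 10 counts at 0 μM are therefore missing from the shares of all miRNAs given here, also any that were higher with DEHP.

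Where an ID had several rows, the one with the largest sum over libraries was used, which left 5064602 to 5952274 counts per library. Size factors came from DESeq2 1.42.0 and edgeR 4.0.16 in R 4.3.3, and other values from Python 3.11.15 with scipy 1.17.1. Log2 ratios used normalized counts plus 0.5, for a mean of at least 10. All 7 members passed. The exact Clopper-Pearson interval of the split of the counts gave the 95% interval of a ratio, a share or an arm ratio, and Woolf's interval that of a difference of log2 ratios. A library with a count of 3 or fewer was taken to be at the floor, which was not the case for any member. With 1 library per concentration no test was made. The members, the lists of seed relatives and the X-linked miR-465 group were chosen with earlier results of these data known. The miRNAs named are the members, the other strands of their hairpins, these lists, and the 5 miRNAs closest in pattern to miR-322-5p. Positions and sequences came from RefSeq and GENCODE M21 on GRCm38. The calculation was tested on simulated data.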

Additional observations from a re-analysis of the deposited data

How the results depend on the processing

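No paired analysis was possible because each concentration has 1 library. For the same reason no replicate could be left out. The libraries were also scaled by upper quartile, by TMM, by total counts, and by sizes without the 15 miRNAs that are among the 10 most abundant of any library. Other alternatives were an added count of 1, sums over the rows of an ID, a minimum of 100 or none, and a threshold of 1. Of 168 log2 ratios of members under an alternative, 118 stayed within their counting interval, 43 left it on the same side of 0 and 7 crossed 0. A changed minimum cannot alter a member's ratio, and the added count of 1 and the summed rows altered it little. All 21 ratios thus stayed under each of these, and the 118 say little about scaling. Among the 21 ratios under each scaling, 12 stayed for the upper quartile, 11 for TMM and 6 for total counts. For sizes that omit the top miRNAs, 5 of 21 stayed. With total counts the log2 ratio between 100 and 0 μM became -0.30 for miR-322-3p, -0.90 for miR-351-5p and -0.10 for miR-542-3p, and that between 100 and 10 μM became -0.36 for miR-322-3p and -1.39 for miR-351-5p. Without the most abundant miRNAs it became -0.47 for miR-351-5p between 100 and 10 μM, and with the upper quartile 0.0074 for miR-450a-5p between 10 and 0 μM. The median of the members between 100 and 0 μM was 0.69 with TMM, 0.032 without the most abundant miRNAs and -0.90 with total counts. Between 100 and 10 μM it was 0.20 with TMM, 0.10 with the upper quartile, -0.47 without the most abundant miRNAs and -1.39 with total counts, and between 10 and 0 μM 0.0074 with the upper quartile. These settings shift all ratios together. With total counts, 2 members were below -2 between 100 and 0 μM (miR-503-5p and miR-450a-5p), and between 100 and 10 μM 0 were above 2 and 1 was below -2. Without the most abundant miRNAs, 1 was below -2 between 100 and 0 μM and 0 were above 2 between 100 and 10 μM. At a threshold of 1, 3 were higher and 1 lower in both comparisons with 100 μM with the size factors, TMM and the upper quartile. A check of this threshold under the other scalings, chosen after seeing the data, gave 0 higher and 3 lower between 100 and 0 μM with total counts and 0 and 2 without the most abundant miRNAs. Between 100 and 10 μM it gave 0 higher and 4 lower with total counts and 2 and 2 without the most abundant miRNAs. With summed rows, which count the reads of miR-450a-5p again, its share was 13.8%, 12.9% and 5.57% at 0, 10 and 100 μM. The share of miR-322-3p was then 37.0%, 36.9% and 49.2%. Depth limits the minor strands most, with 5 to 72 counts at 100 μM for all but miR-503-3p.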

Other observations

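Ranks within a library give another view of the members that needs no scaling between libraries. Among the 627 miRNAs, miR-322-3p ranked 33, 29 and 23 at 0, 10 and 100 μM DEHP, and miR-351-5p ranked 42, 33 and 43. miR-542-3p went from rank 56 and 59 to 41, and miR-450b-5p, which was far down the list at 0 μM (172) and 10 μM (200), stood at 112 at 100 μM. miR-503-5p moved the other way, from 73 to 96 and 150. miR-322-5p ranked 93, 87 and 109 and miR-450a-5p 80, 83 and 106. Without DEHP, miR-503-5p was thus ahead of miR-322-5p and miR-450a-5p, and at 100 μM it was the lowest of the 7 members.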
